A study of Sus scrofa with 18 samples.

Results

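The genes described here are 10 genes that mark the cells lining blood vessels, the endothelium: PECAM1, CDH5, VWF, KDR, FLT1, TEK, TIE1, ENG, CAV1 and AQP1. They were chosen by symbol, and all 22 probe sets that the array's probe-to-gene table assigns to exactly 1 of these symbols were taken, out of 23935 probe sets tested and 6765 genes named on the array. All 10 genes were on the array. TIE1 and ENG had 1 probe set each, and the other 8 genes had several.

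The arrays measured RNA from the right ventricular free wall of 9 pigs, each sampled in right ventricular failure and at baseline. Failure was brought about by tying off coronary arteries of the right ventricular free wall. In 6 pigs (numbers 6, 8, 9, 11, 12 and 13) the failure sample was labelled with 120 min of ischemia. In the other 3 pigs (numbers 5, 10 and 14) failure was defined by a right atrial pressure above 20 mmHg. The baseline sample came from the same animal in each case. All animals were crosses of the Hampshire, Yorkshire and Swedish Landrace breeds, and the labels name no genetic change. No array of a pig sampled again without ligation was analysed here, so ligation and elapsed time cannot be told apart, and each state is 1 sample per animal.

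Endothelial cells form the inner sheet of every vessel and of the heart chambers. They are held together by junction proteins, take growth cues through receptor tyrosine kinases for VEGF and angiopoietins, store clotting factor in granules, and carry caveolae, small pits of the cell surface. In heart muscle a dense capillary bed runs between the cardiomyocytes, so a piece of ventricular wall always carries endothelial RNA beside that of muscle, fibroblasts and mural cells. In such bulk tissue, fewer endothelial cells and less RNA per endothelial cell cannot be told apart.

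No endothelial identity gene passed the test between failure and baseline. Of the 10 genes, 0 passed an adjusted p of 0.05 (limma with pig as a block, Benjamini-Hochberg over all 23935 probe sets), 0 had an unadjusted p under 0.05, and 5 were higher and 5 lower in failure. Over the whole array 16 probe sets were called, which is 0.0668% of those tested, 5 of them higher (0.0209%) and 11 lower (0.046%), so a count of 0 among 10 is near that background. At an unadjusted p under 0.05 the whole array had 1470 probe sets (6.14%). The median log2 change of the 10 genes was 0.0037, beside 0.00034 over all tested probe sets. The 95% intervals of the 10 changes lay within log2 changes of −0.29 and 0.28, that is 0.816-fold to 1.21-fold of baseline. All other probe sets of the members also failed the test, with adjusted p from 0.868 to 0.983.

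Each gene is described by its brightest probe set, the one with the highest mean over the 18 arrays. Values are log2 intensities as deposited, and levels of different probe sets are not comparable with each other. In the deposit 1473 probe sets had at most 2 decimals on every array, and 0 of the member probe sets were among them. Whether those values were processed differently, and whether this bears on genes of the other lists, was not tested. Heart muscle in the samples was borne out by cardiomyocyte markers, which were not chosen to tell chambers of the heart apart. All 14 cardiomyocyte markers measured had a mean above the array median. Their mean log2 intensity per array ran from 13.27 to 13.77 in failure and from 13.40 to 13.77 at baseline. Of the endothelial genes, PECAM1, CDH5, VWF, TEK, ENG, CAV1 and AQP1 had a mean above the array median, FLT1 and TIE1 lay below it, and KDR lay below the 25th percentile. The changes of KDR, FLT1 and TIE1 thus come from dim probe sets.

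PECAM1 encodes an adhesion molecule at the contacts between endothelial cells, also carried by platelets and leukocytes. Its log2 intensity had a lowest value of 9.36, a median of 10.15 and a highest value of 10.77 in failure, against 9.48, 10.16 and 10.47 at baseline. Both groups overlapped almost fully: pig 10 was lowest and pig 5 highest in both. The change was 0.03 (SE 0.07, adjusted p = 0.972 by limma), it was higher in 5 of 9 pigs, and it ran from −0.32 in pig 14 to 0.30 in pig 5. The dimmer PECAM1 probe set gave −0.08 (SE 0.07), at an adjusted p of 0.921 by limma. Over the 9 pigs the changes of these 2 probe sets had a Pearson r of 0.084, so they ranked the pigs differently, while their pig mean levels had an r of 0.599.

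CDH5 encodes VE-cadherin, the cadherin of endothelial adherens junctions. It spanned 8.71, a median of 9.38 and 9.83 in failure, against 9.004, 9.45 and 9.76 at baseline. Its groups overlapped, with pig 10 lowest in both. The change was −0.01 (SE 0.07, adjusted p = 0.997 by limma), with 4 of 9 pigs higher, between −0.39 in pig 9 and 0.38 in pig 12. The other, dimmer CDH5 probe set gave −0.10 (SE 0.09) and its changes correlated with those of the brightest at r = 0.545.

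VWF encodes von Willebrand factor, a clotting protein kept in endothelial storage granules. Its failure values had a lowest value of 7.79, a median of 8.90 and a highest value of 9.77, against 7.87, 8.80 and 9.40 at baseline. VWF had a wide spread over pigs (SD 0.60 in failure and 0.42 at baseline) and no shift of either group. Pig 10 lay lowest and pig 5 highest in both states. The change was 0.01 (SE 0.12, adjusted p = 0.997 by limma), ranging from −0.88 in pig 9 to 0.61 in pig 13, and 5 of 9 pigs were higher. The changes of the 2 dimmer VWF probe sets, 0.08 and 0.04, correlated at r = −0.122 and −0.488 with those of the brightest, so the pig to pig pattern of VWF rests on 1 probe set.

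The VEGF receptors were dim. KDR, also called VEGFR2, is the main signalling receptor for VEGFA, and it spanned 3.46 to 3.93 with a median of 3.61 in failure, against 3.29 to 4.09 with a median of 3.58 at baseline. Its change was 0.01 (SE 0.09, adjusted p = 0.996 by limma), with 5 of 9 pigs higher, and the groups overlapped. FLT1, also called VEGFR1, binds VEGFA tightly and limits its supply to KDR. It spanned 4.11 to 5.01 with a median of 4.55 in failure, against 3.97 to 4.78 with a median of 4.55 at baseline. The FLT1 change was −0.0042 (SE 0.10, adjusted p = 0.997 by limma), between −0.66 in pig 5 and 0.35 in pig 13, and 5 of 9 pigs were higher. Neither receptor separated failure from baseline arrays, and their other probe sets were dimmer still. The means of the other KDR probe set (3.37) and of 1 FLT1 probe set (3.83) lay under the 25th percentile of every array (3.91 to 4.07), and that of the remaining FLT1 probe set (4.04) lay within that range.

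TEK, the receptor for angiopoietins also known as TIE2, spanned 7.46 to 8.33 with a median of 7.85 in failure, against 7.48 to 8.27 with a median of 7.78 at baseline. The groups overlapped, and pig 11 was among the 2 highest in both. The TEK change was 0.05 (SE 0.08, adjusted p = 0.959 by limma), higher in 5 of 9 pigs. TIE1, a related receptor that modulates TEK signalling, spanned 4.57 to 5.57 with a median of 5.08 in failure, against 4.47 to 5.60 with a median of 5.04 at baseline. Its change was 0.02 (SE 0.11, adjusted p = 0.996 by limma), with 4 of 9 pigs higher. TIE1 changes ran from −0.68 in pig 9 to 0.58 in pig 6, wide against their mean.

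ENG encodes endoglin, a co-receptor for TGF-beta and BMP ligands on endothelial cells. It spanned 5.53 to 6.56 with a median of 6.13 in failure, against 5.83 to 6.96 with a median of 6.07 at baseline, and the groups overlapped. Pig 9 was lowest in failure and among the 2 highest at baseline. The ENG change was −0.05 (SE 0.11, adjusted p = 0.971 by limma), from −0.89 in pig 9 to 0.49 in pig 6, and it was higher in 5 of 9 pigs.

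CAV1 encodes the main coat protein of caveolae, which muscle and fat cells carry as well. It spanned 12.52 to 13.45 with a median of 12.84 in failure, against 12.51 to 13.36 with a median of 12.93 at baseline. Its groups overlapped fully and its change was −0.01 (SE 0.06, adjusted p = 0.996 by limma), higher in 6 of 9 pigs. Of the dimmer CAV1 probe sets, one gave 0.09 (SE 0.14), with single pigs from −0.72 in pig 6 to 1.15 in pig 12, and the other gave −0.13 (SE 0.07). The changes of these probe sets correlated with the brightest at r = 0.149 and −0.193.

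AQP1 encodes a water channel of capillary endothelium and of red cells. It spanned 11.52 to 12.22 with a median of 11.65 in failure, against 11.63 to 12.23 with a median of 11.79 at baseline. The groups overlapped, and the change of −0.05 (SE 0.07, adjusted p = 0.947 by limma) was higher in 3 of 9 pigs. Beside it, the 5 red cell markers measured were all lower in failure, with a median change of −0.83, and 3 of the 5 were called lower; their mean log2 intensity per array ran from 5.64 to 6.91 in failure and from 6.60 to 7.88 at baseline. Over the 9 pigs the AQP1 change and the mean red cell change had an r of −0.336 (exact permutation p = 0.372). The dimmer AQP1 probe set gave 0.03 (SE 0.07), with r = −0.379 between its changes and those of the brightest.

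**Figure D1:**
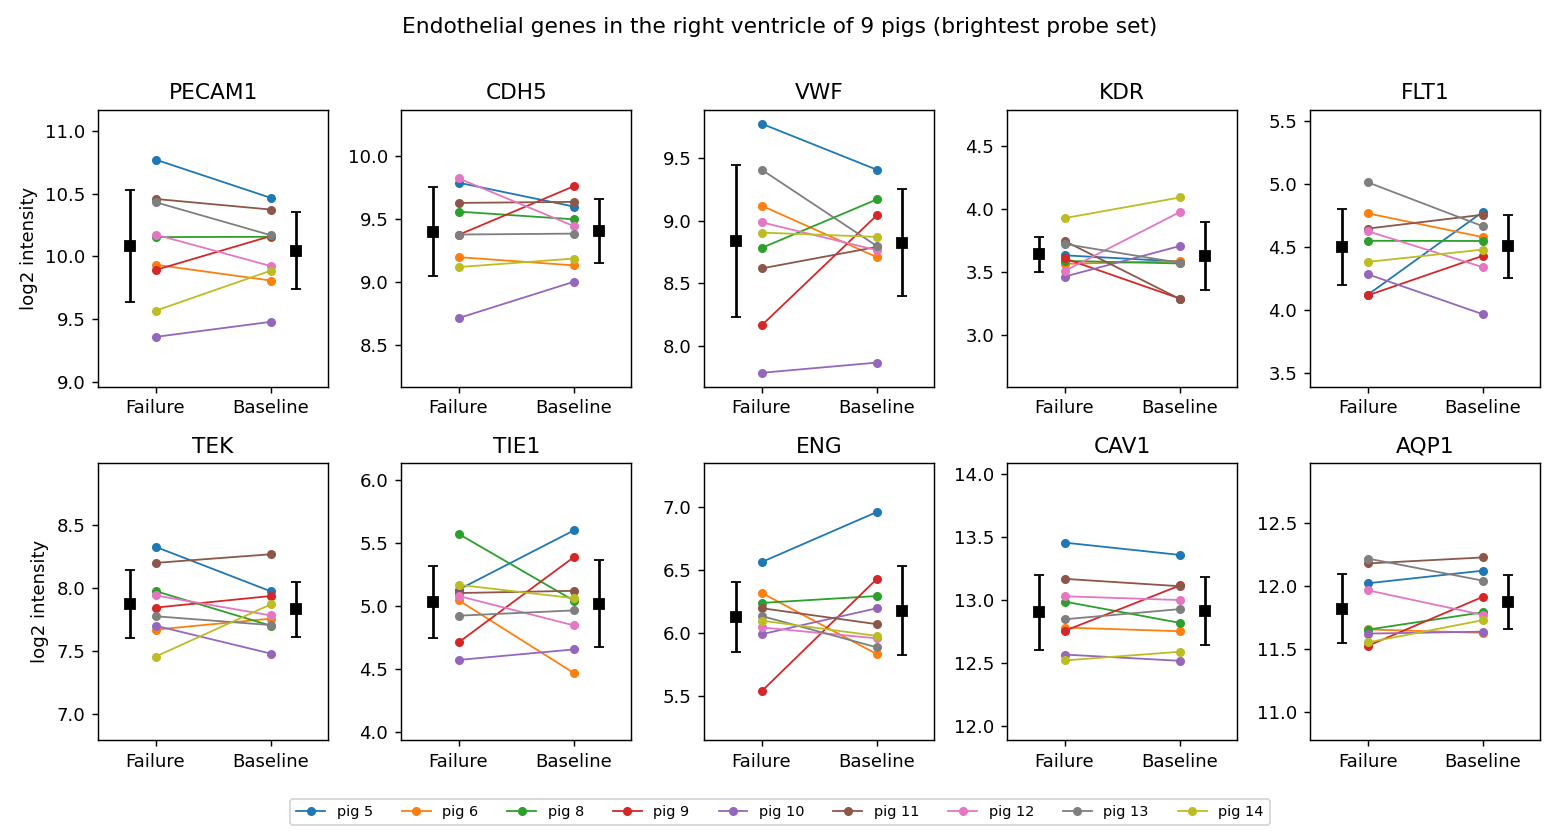
Log2 intensity (y axes, 1 per gene) of the brightest probe set of each of the 10 endothelial genes, failure left and baseline right, with lines joining the samples of 1 pig and bars for the mean and SD (n = 9). Failure and baseline values overlapped for every gene.

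**Figure D2:**
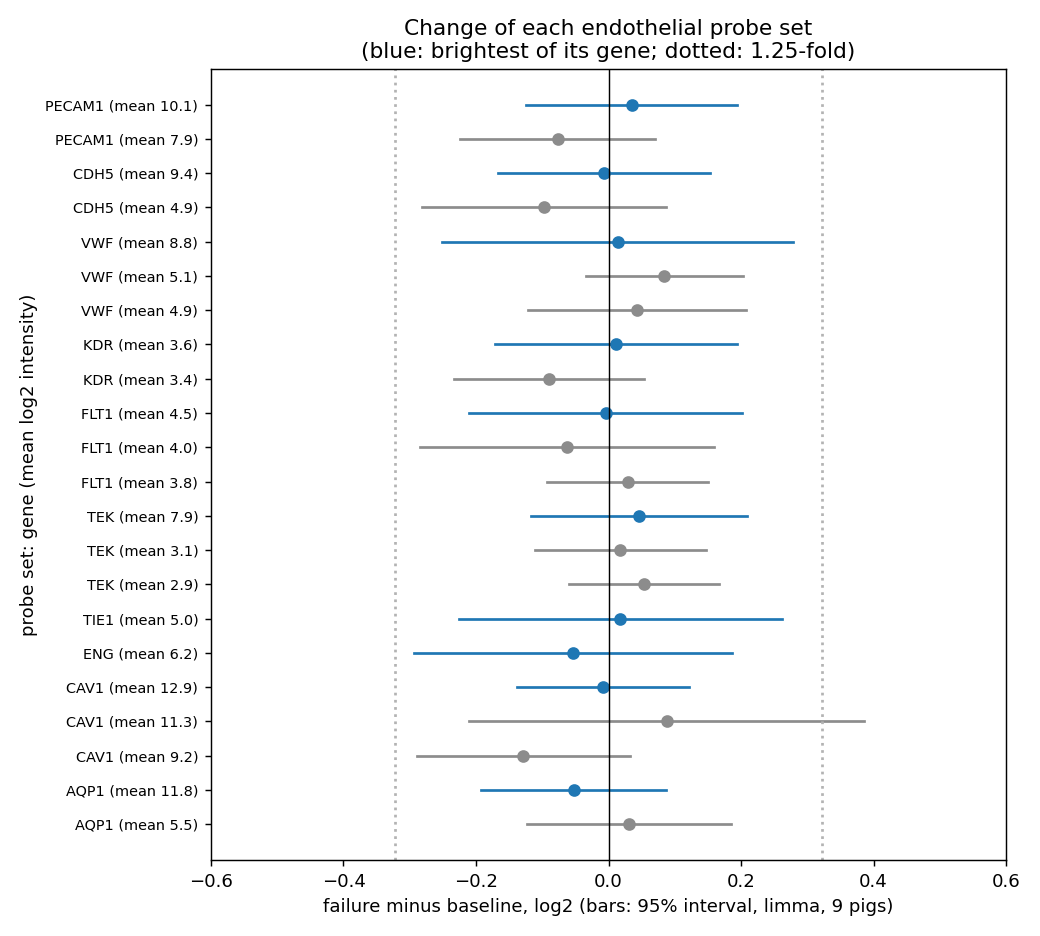
Log2 change, failure minus baseline, of all 22 probe sets of the 10 genes, as the limma estimate (point, blue for the brightest of its gene) and its 95% interval (bar, 9 pigs), with dotted lines at the fold named in the title. Every interval included 0, and the estimates lay between −0.13 and 0.09.

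The plot of log2 intensity by pig shows lines that cross between the states in all genes, while the plot of changes by probe set shows that intervals of the brightest and the dimmer probe sets overlapped. The same held for the difference between the label sets. For the difference in change between the 3 pigs defined by atrial pressure and the 6 with a labelled ischemia time, 0 of 10 genes were called (adjusted p from 0.954 to 0.998, limma interaction with pig as a block), where 0 of 23935 probe sets were called (0%). Of the 22 member probe sets, 2 had an unadjusted p under 0.05, against 1356 of all (5.67%), namely a dim KDR and a dim TEK probe set, both with an adjusted p of 0.867.

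The spread between pigs was larger than the mean changes. The SD of the change over pigs had a median of 0.26 log2 units among the 10 genes (0.15 to 0.46), beside 0.22 for all tested probe sets, and the SD of a pig's mean level had a median of 0.24 (0.16 to 0.47), beside 0.18. For the brighter probe sets, those with a mean above the median mean, these medians were 0.206 for changes and 0.214 for levels. At the brightest probe sets, pig 10 had the lowest mean level of PECAM1, CDH5, VWF, FLT1, TEK, TIE1, CAV1 and AQP1. Pig 5 had the highest of PECAM1, CDH5, VWF, TIE1, ENG and CAV1 there. At the dimmer probe sets pig 10 was again lowest for PECAM1 and CDH5, but not for VWF, FLT1, TEK, CAV1 or AQP1. It was highest for the dimmer AQP1 probe set (6.06) and for a dimmer FLT1 probe set (4.23). Among dimmer probe sets of the genes named for pig 5, that pig was highest only at a CAV1 one. Across pigs the failure level followed the baseline level for PECAM1 (r = 0.879, exact permutation p = 0.00196, adjusted p = 0.0167 over 10 relations; rho = 0.85, p = 0.00607) and for CAV1 (r = 0.858, exact permutation p = 0.00333, adjusted p = 0.0167; rho = 0.717, p = 0.0369). This family of 10 relations was chosen after seeing the data. For the other genes r ran from 0.154 (TIE1) to 0.760 (CDH5, exact permutation, adjusted p = 0.0557), and none passed adjustment. Beside these, the consensus correlation of the arrays of a pig over all tested probe sets was 0.477 (limma). Likeness of a pig's arrays was thus found over the array at large. Without pigs 10 and 6 the PECAM1 r was 0.813, and without pigs 5 and 10 the CAV1 r was 0.666, while within the 6 pigs with a labelled ischemia time they were 0.611 and 0.313.

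In some pigs most of the 10 genes had the same sign of change. In pig 9, 9 of the 10 genes were lower in failure, with a median change of −0.37, whereas the median of all tested probe sets there was 0.01 and their 5th percentile was −0.51. KDR was the gene that was higher in pig 9, at 0.32. Dimmer probe sets in pig 9 were lower for PECAM1 (−0.28), CDH5 (−0.64), KDR (−0.21) and TEK (−0.03 and −0.02). They were higher for AQP1 (0.33). Both signs occurred for VWF (−0.02 and 0.32), FLT1 (−0.04 and 0.10) and CAV1 (−0.04 and 0.21). The count of 9 in pig 9 thus holds for the brightest probe sets. In pig 12, 9 of the 10 were higher, with a median change of 0.21, and KDR was the gene that was lower. In the other pigs the counts higher were 6 (pig 5), 8 (pig 6), 6 (pig 8), 3 (pig 10), 4 (pig 11), 7 (pig 13) and 3 (pig 14), and the median changes lay between −0.08 and 0.16. At least 7 of the 10 genes thus shared a sign in 6 of the 9 pigs, higher in pigs 6, 12 and 13 and lower in pigs 9, 10 and 14. Such counts were not made for other sets of 10 genes, so how often a like split arises was not tested.

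Other measures of pigs 9 and 12 are given beside these values. The GAPDH 3'/5' difference, the log2 intensity of the probe set at the 3' end of the GAPDH transcript minus that at the 5' end and a sign of RNA integrity, was 0.48 in failure and 0.93 at baseline in pig 9, a change of −0.44 that was the lowest of the 9 pigs. In pig 12 it was 1.16 in failure and 0.61 at baseline, a change of 0.55. The difference averaged 1.38 ± 0.97 in failure and 1.15 ± 0.61 at baseline over all pigs (SD, n = 9). The mean change in pig 9 was −0.25 for the mural cell markers, −0.15 for fibroblast markers, −0.62 for red cell markers and −0.02 for cardiomyocyte markers. In pig 12 these mean changes were 0.14 for mural cell markers, 0.34 for fibroblast markers, −0.83 for red cell markers and −0.08 for cardiomyocyte markers. The mural, fibroblast and GAPDH changes thus had the sign of the identity genes' median in both pigs, and their part in these values was not tested.

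**Figure D3:**
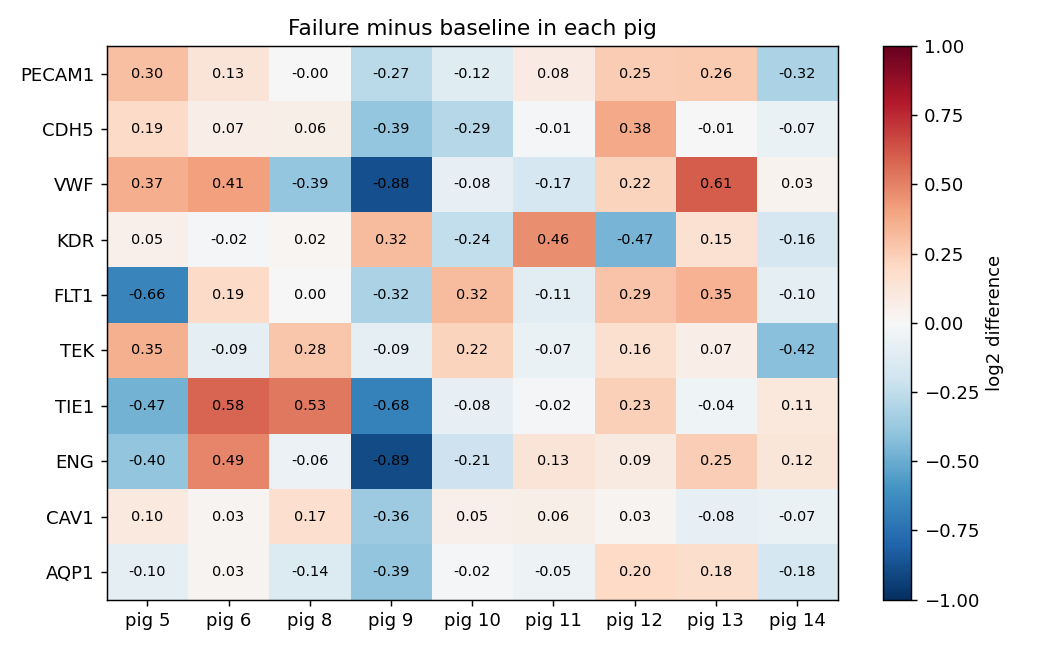
Log2 change, failure minus baseline, of the brightest probe set of each gene (rows) in each of the 9 pigs (columns), as a colour from blue (lower in failure) to red (higher) with the value in each cell. Pig 9 has 9 of 10 cells below 0, and pig 12 has 9 of 10 above 0.

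Changes of the 10 genes varied together over pigs more than those of the array at large. The 45 pairs had a median Pearson r of 0.431, 33 of them positive, beside a median of 0.0004 over all pairs of tested probe sets, and 13.3% of member pairs reached an r of 0.7, beside 2.51% of all pairs. That share was 3.67% for pairs of the brighter probe sets and 3.43% for the brightest probe sets of named genes. Among single pairs 8 had an unadjusted exact permutation p under 0.05 and 0 passed Benjamini-Hochberg adjustment over the 45 (smallest adjusted p = 0.231). The highest r was that of TIE1 and ENG (r = 0.814, exact permutation p = 0.00723; rho = 0.667, p = 0.0589), which was 0.478 without pigs 9 and 6. PECAM1 and CDH5, the junction pair, had r = 0.755 (exact permutation p = 0.0171, adjusted p = 0.245; rho = 0.783, p = 0.0172) and 0.749 without pigs 14 and 9. VWF and AQP1 had r = 0.802 (exact permutation p = 0.0103, adjusted p = 0.231; rho = 0.683, p = 0.0503) and 0.406 without pigs 9 and 13. KDR was apart, with a negative r to all 9 other genes, lowest at −0.444 with AQP1. These values come from its brightest probe set, which is dim, and the changes of the other KDR probe set had an r of −0.233 with it.

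Of the 9 pigs, leaving out pig 9 lowered that joint variation most. Without pig 9 the median r of the changes was 0.098, and over all 22 probe sets, in place of the brightest per gene, it was 0.0042. By Spearman's rho it was 0.233, and with each gene as the mean of its probe sets it was 0.170. For the 7 genes above the array median it was 0.516. With the GAPDH 3'/5' change taken out it was 0.322, and within the 6 pigs with a labelled ischemia time, which include pig 9, it was 0.568.

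Levels of a pig, the mean of its 2 arrays, also varied together. Their median r over the 45 pairs was 0.573, beside 0.0085 over all pairs of tested probe sets, and 28.9% of member pairs reached 0.7, beside 3.91% of all. For levels that share was 5.83% for pairs of the brighter probe sets and 5.20% for the brightest probe sets of named genes. Of the 45 pairs, 7 passed adjustment by r and 4 by rho. PECAM1 and CAV1 had r = 0.922 (exact permutation p = 0.000761, adjusted p = 0.0134; rho = 0.85, adjusted p = 0.0547), and 0.836 without pigs 10 and 5. TEK and CAV1 had r = 0.901 (exact permutation p = 0.000893, adjusted p = 0.0134; rho = 0.967, adjusted p = 0.00372), and 0.921 without pigs 11 and 5. CDH5 and CAV1 had r = 0.883 (exact permutation p = 0.000689, adjusted p = 0.0134; rho = 0.983, adjusted p = 0.00223), and 0.787 without pigs 10 and 14. Within the 6 pigs with a labelled ischemia time these 3 were 0.692, 0.907 and 0.866.

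These pig levels are means of arrays that also differ in other ways. PECAM1, TEK, CDH5, CAV1 and AQP1 made up all 7 of the pairs that passed, and AQP1 was there only through PECAM1. PECAM1 and VWF had r = 0.785, and 0.00895 without pigs 10 and 5. Over all 22 probe sets, in place of the brightest per gene, the median r of levels was 0.17. Without pig 5 it was 0.405, without pig 10 it was 0.457, within the 6 pigs with a labelled ischemia time it was 0.203, and with the GAPDH difference taken out it was 0.372. Pig 5 also had the highest GAPDH difference, 3.55 in failure and 2.61 at baseline.

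**Figure D4:**
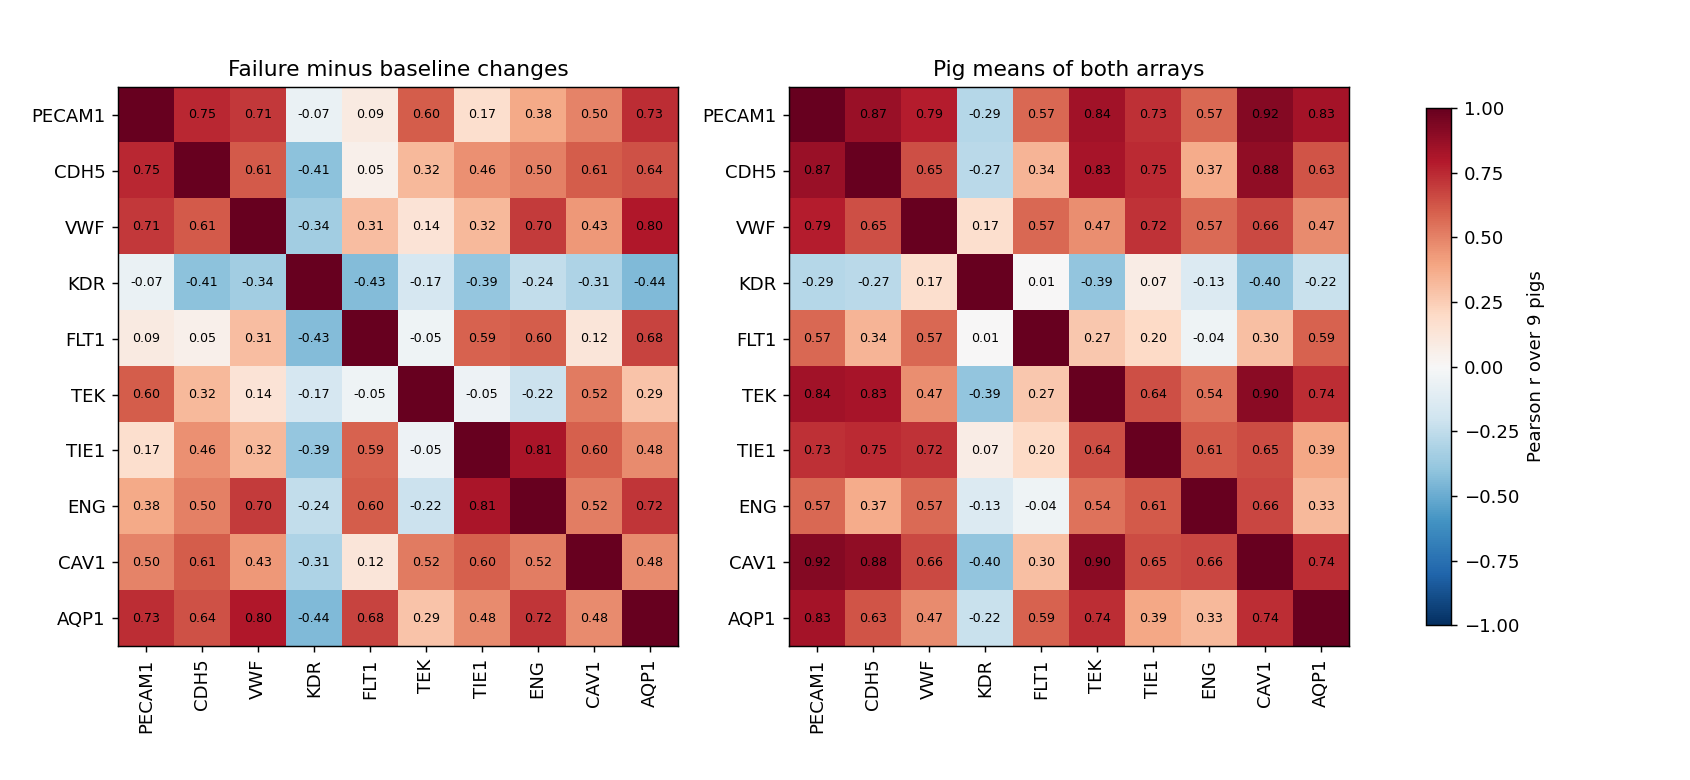
Pearson r over the 9 pigs between the 10 genes, for changes (failure minus baseline) in the first panel and for pig mean levels in the second, on a colour scale from −1 to 1. Most cells are positive, and KDR is negative with all 9 other genes for changes and with 6 of 9 for levels.

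Over pigs the changes of the 10 genes were also set against those of other markers, in 60 relations, of which 7 had an unadjusted exact permutation p under 0.05 and 0 passed adjustment. The PECAM1 change was related to the change of the GAPDH 3'/5' difference (r = 0.866, exact permutation p = 0.00327, adjusted p = 0.0981; rho = 0.883, p = 0.00308), with r = 0.853 without pigs 13 and 5. The TIE1 change was related to the mean change of mural cell markers (r = 0.867, exact permutation p = 0.00219, adjusted p = 0.0981; rho = 0.70, p = 0.0433), with r = 0.605 without pigs 9 and 5. Neither passed adjustment over the 60 relations. The changes of VWF (r = 0.728, exact permutation p = 0.0256, adjusted p = 0.378; rho = 0.70, p = 0.0433) and AQP1 (r = 0.668, exact permutation p = 0.0481, adjusted p = 0.378; rho = 0.65, p = 0.0666) also moved with the GAPDH 3'/5' difference, so 3 of the 7 relations with an unadjusted p under 0.05 were with that sign of RNA integrity. Without pigs 13 and 5 these r were 0.519 for VWF and 0.838 for AQP1. With the GAPDH difference as a covariate in the paired fit, the PECAM1 change was −0.0500, the VWF change −0.128 and the TEK change −0.0165, all opposite in sign to the changes without it, and 0 of the 10 genes were called.

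Genes grouped by roles in the endothelium and in vessel signalling, in 11 lists, held no called gene. The lists were set by role, so their counts need not reflect endothelial cells alone. The lists held 156 symbols, some of them a second name of the same gene. With them 84 genes were measured, of which 0 were called and 9 had an unadjusted p under 0.05. The smallest adjusted p by limma was 0.528. Their median change was 0.04, with 57 of 84 higher, beside 0.00034 and 50.2% of all tested probe sets higher, and −0.0066 and 46.4% of the brightest probe sets of all named genes. Markers of other cell types had unequal counts as well: 9 of 10 fibroblast markers were higher (median 0.07), as were 4 of 4 adipocyte and 3 of 3 mesothelial ones, while 12 of 14 cardiomyocyte markers were lower (median −0.04), and their part in the vessel lists' counts was not tested. Beside KDR and FLT1, 9 symbols of VEGF ligands and receptors were listed, of which 3 were measured. VEGFA, the ligand of KDR and FLT1, was at 0.07 (SE 0.09), and VEGFB, a ligand of FLT1, was at −0.13 (SE 0.07). Without pig 5 these were 0.03 and −0.07. The dimmer VEGFA probe sets were at −0.06 (mean level 9.82), 0.29 (mean level 5.60) and −0.01 (mean level 3.22). ANGPT1, the agonist of TEK, was at −0.16 (SE 0.12) from a dim probe set, and at −0.02 without pig 6, where it was −1.25. ANGPT2, its context-dependent antagonist, was at 0.01 (SE 0.12).

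Genes of TGF-beta and BMP signalling, the pathway of ENG, had 5 of 7 higher, among them ID1, a BMP target, at 0.15 (SE 0.07, adjusted p = 0.798 by limma). CAV2, CAVIN2 and PACSIN2, which build caveolae with CAV1, had changes of −0.03, 0.03 and 0.06. The dimmer CAVIN2 probe set was at −0.05. Junction and surface genes had 13 of 21 higher, with THBD, the anticoagulant receptor thrombomodulin, at 0.24 (SE 0.09, adjusted p = 0.695 by limma, higher in 8 of 9 pigs), and TJP1, a tight junction scaffold, at 0.18 from a dim probe set. Notch pathway genes had 6 of 7 higher with a median of 0.05. The lower one, EFNB2, was at −0.15 (SE 0.08, adjusted p = 0.850 by limma), with −0.70 in pig 9. Of the higher ones, DLL4 was at 0.09 but higher in only 4 of 9 pigs. JAG1 was at 0.07, while its dimmer probe sets were at −0.02 and −0.07. Transcription factors of endothelium had 7 of 11 higher with a median of 0.03. HEY2, a Notch target of arterial cells, was at −0.22 (SE 0.10, adjusted p = 0.753 by limma), while its dimmer probe sets were at −0.04 and 0.03.

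Activation genes, which inflamed endothelium expresses, had all 11 of 11 measured members above 0, with a median of 0.20, but 0 called. SELP, the leukocyte adhesion molecule P-selectin, averaged 5.57 ± 0.38 in failure and 5.16 ± 0.23 at baseline (SD, n = 9), a change of 0.42 (SE 0.13, adjusted p = 0.528 by limma) that was higher in 7 of 9 pigs. VCAM1, an adhesion molecule for leukocytes, was at 0.30 (SE 0.15, adjusted p = 0.830 by limma), and at 0.17 without pig 5, where it was 1.33. The mean change of the activation list by pig ran from −0.70 in pig 8 to 1.40 in pig 5, and in pig 9 it was 0.86. In pig 9 the activation mean and the identity genes' median of −0.37 thus had opposite signs, a value from 1 animal with no test.

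Vasoactive genes had 7 higher and 7 lower of 14. The endothelin receptors EDNRA, at 0.14 (SE 0.06), and EDNRB, at 0.17 (SE 0.07), both had an adjusted p of 0.753 by limma. The dimmer EDNRB probe set was at −0.05. DDAH1, which breaks down inhibitors of nitric oxide synthase, was at −0.25 (SE 0.12), and at −0.12 without pig 11. The 3 lymphatic markers measured had changes of 0.06 (LYVE1), 0.17 (PDPN) and 0.27 (CCL21, 0.11 without pig 5), and the 3 endocardial ones −0.10 (NFATC1), −0.02 (CDH11) and 0.17 (TMEM100). Of the mural cell genes 4 of 9 were higher and 5 lower, with a median of −0.009. ACTA2, smooth muscle actin, was at 0.26 (SE 0.11, adjusted p = 0.774 by limma) and MYLK at 0.13 (SE 0.08). KCNJ8 was at −0.14 (SE 0.06, adjusted p = 0.812 by limma), and its dimmer probe sets were at −0.13 and 0.11.

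**Figure D5:**
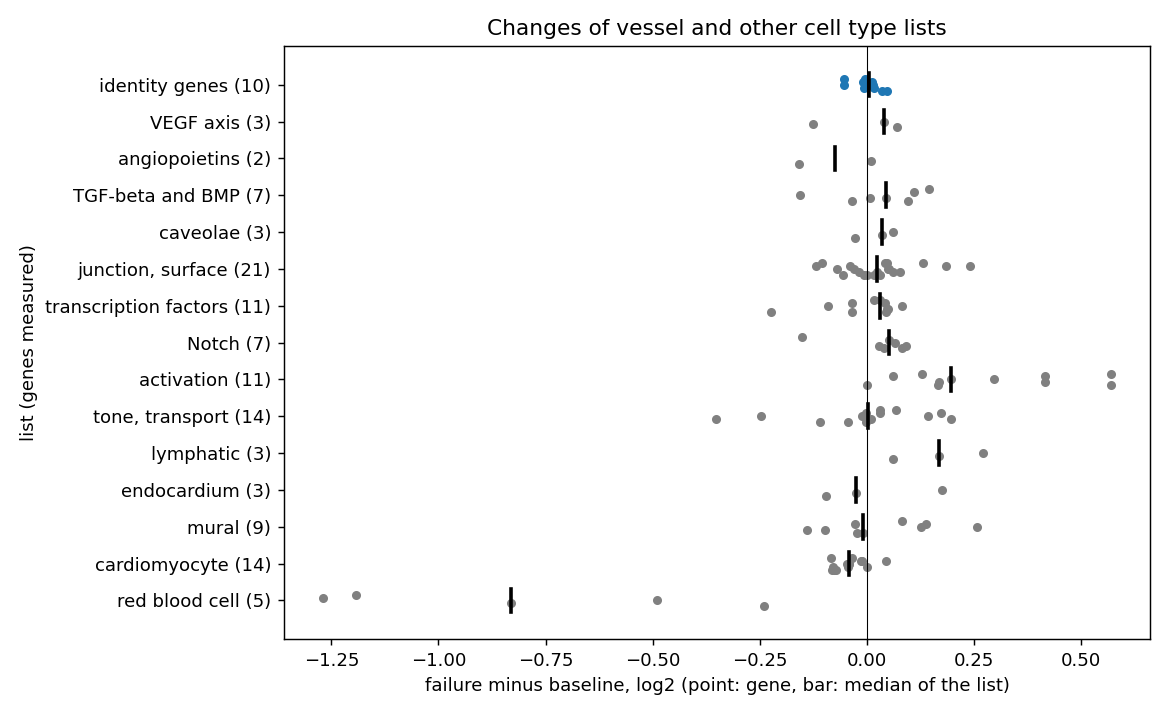
Log2 change, failure minus baseline, of each measured gene in the vessel lists and in the marker lists of other cell types, 1 row per list with a bar for the median. The activation list lies above 0, the red cell list lies below 0, and the endothelial identity genes sit around 0.

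Over the 18 arrays, 6 genes followed the mean z-score of the 10 identity genes most closely, by Pearson r and given without a test: ARHGAP27 (0.947), JAM3 (0.932), TPCN2 (0.912), ARAP3 (0.912), TMSB10 (0.906) and FXYD6 (0.905). JAM3 is a junctional adhesion molecule found on endothelium, and TMSB10 is a small protein that binds actin monomers. Over the 6755 genes compared the median r was −0.014 and the 95th percentile was 0.660. Each identity gene against the mean of the other 9 gave 0.917 for PECAM1, 0.834 for CAV1, 0.781 for CDH5 and −0.269 for KDR, with the 6 others between 0.410 and 0.770. The 18 arrays come as 2 per pig, so these values share animals and array quality.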

How the data were processed

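Right ventricular free wall RNA was labelled with a 3' IVT kit and hybridised to 18 Affymetrix porcine arrays. The values are the log2 intensities deposited by the authors, who used Partek per the submitters' processing notes; how the probe signals were background-corrected, normalized and summarized is not given in the sources used here. Of 24123 probe sets, 188 control probe sets were left out and 23935 were tested; 10069 carry exactly 1 gene symbol (9961 matched to RefSeq by ID) and 198 carry several.

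The test was limma 3.58.1 (R 4.3.3) on the deposited values with pig as a block, two-sided, with p-values adjusted by Benjamini-Hochberg over the 23935 probe sets. The pig numbers pair the samples by the labels; deviations of the 2 arrays of a pig correlated at 0.449 to 0.750 over all tested probe sets, and in 9 of 9 pigs best with its own partner. Over the 10 identity genes alone they ran from −0.259 to 0.798, and in 4 of 9 pigs were best with its own partner. Correlations over 9 pigs used exact permutation (all orders) with Benjamini-Hochberg adjustment (Python 3.11.15, scipy 1.17.1). Genes are given by their brightest probe set; named genes are all members, the 3 of each vessel list with the smallest p, and the 6 nearest genes over arrays. The members and lists were chosen with earlier results of these data known. The number of arrays limits the precision. The alternatives tried were other normalizations, brightness filters, probe set rules, left-out pigs, the GAPDH covariate and each label set alone. Sequences are not printed here.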

Additional observations from a re-analysis of the deposited data

Results flagged for a closer look

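In groups of 9, single samples were compared with the rest by the gap to the nearest other sample relative to the whole range; 30 groups of member values were looked at and 2 stood apart, where chance gives about 1 in 20, or 1.5. In VWF at baseline, pig 10 had 7.87 against 8.71 to 9.40 in the other 8 pigs. In CAV1, the change of pig 9 was −0.36 at the brightest probe set, while those of the other pigs lay between −0.08 and 0.17. The dimmer CAV1 probe sets gave −0.04 and 0.21 in pig 9, so the drop rests on the brightest probe set. No cause was tested for either.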

How the results depend on the processing

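The 10 endothelial genes stayed at 0 called, for failure minus baseline and for the difference between label sets, under every alternative that was run, and no call changed among the 45 genes that were rerun, the 10 and those named from the vessel lists; the 6 genes nearest over arrays were not rerun. The smallest adjusted p by limma under any alternative was, for failure minus baseline, 0.827 for the 10 and 0.204 for the 45, and, for the difference between label sets, 0.671 for the 10 (without pig 9). The count over all tested probe sets, 16, was 0 with no replicate block, 15 with pig as a random effect, 0 with an unmoderated paired test, 9 with brighter probe sets only, 9 with the GAPDH covariate and the replicate block, 3 in label set 1 only and 0 in label set 2 only. With 1 pig left out it ran from 2 to 26: 9 without pig 5, 26 without pig 8, 3 without pig 9, 2 without pig 10, 4 without pig 11, 4 without pig 12 and 5 without pig 13. Of 889 changes of these 45 genes under alternatives, 831 kept direction and call and 58 turned sign. With quantile normalization CDH5 was 0.00377, KDR −0.0017 and CAV1 0.00603. With the GAPDH covariate and the replicate block PECAM1 was −0.0500, VWF −0.128, TEK −0.0165, ANGPT2 −0.115, CAV2 0.00163, JAG1 −0.00667, LYVE1 −0.0885 and VEGFA −0.0342. With the mean over all probe sets of a gene PECAM1 was −0.0207, KDR −0.0394, CAVIN2 −0.00641 and JAG1 −0.00838. In label set 1 CDH5 was 0.0173, VWF −0.0325, FLT1 0.0670, ENG 0.000182, ANGPT2 −0.0518 and CDH11 0.0595. In label set 2 PECAM1 was −0.0449, KDR −0.119, TIE1 −0.150, CAV1 0.0261, CAV2 0.0386, DDAH1 0.00821 and HEY2 0.0212. With 1 pig left out, 12 genes turned sign: VWF (−0.0604 to 0.125), FLT1 (−0.0485 to 0.0778), ANGPT2 (−0.116 to 0.0774), LYVE1 (−0.0257 to 0.185), TIE1 (−0.0527 to 0.104), CAV2 (−0.0559 to 0.0300), CDH5 (−0.0553 to 0.0405), KDR (−0.0447 to 0.0715), ENG (−0.121 to 0.0514), CAV1 (−0.0308 to 0.0355), CAVIN2 (−0.0058 to 0.0699) and CDH11 (−0.0536 to 0.0458). The median r of changes ran from 0.098 (without pig 9) to 0.496 and that of levels from 0.405 (without pig 5) to 0.623. The median r of changes was 0.233 by Spearman and 0.170 with the mean over all probe sets of a gene. The median r of levels was 0.383 by Spearman, 0.203 in label set 1 and 0.372 with GAPDH residuals. Dim genes, KDR, FLT1 and TIE1 among them, have no value with brighter probe sets only. The cause was not tested.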
